A study of Mus musculus with 82 samples.

Results

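Nlrp1a, Nlrp1b, Nlrp3, Casp1, Casp4 and Pycard are the inflammasome genes described here, as measured across inbred mouse strains in naive CD4 T cells. They were chosen by symbol, and each of the 6 had 1 probe set annotated to it alone, out of 24922 probe sets and 19752 named genes. Spleen cells that carried CD3, CD4 and CD62L and lacked CD8, CD11c, CD25, CD49b, Gr1 and Ter119, among other markers, were taken by flow sorting. All mice were male and 6 weeks old per the labels (5 weeks in the series description, whose text names granulocytes of bone marrow beside the sorted T cells, where the labels give T cell markers), and each array held a pool of mice of 1 strain. The 82 arrays fell into 40 strain groups. Of these, 38 held 2 arrays, SWR/J held 1 and C57BL/6J held 5. No group carried a treatment or an engineered allele beyond what its strain name states, such as the Ay coat colour allele in KK.Cg-Ay/J. The title and the background label disagree for the C57BR-titled group (labelled CBA/CaJ) and for the DBA2-titled group (labelled DBA/1LacJ), and both were kept as groups of their own.

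Inflammasomes are protein complexes that switch on inflammatory caspases. Sensors such as NLRP1 and NLRP3 detect toxins, pathogen activities or cell damage and, often through the adaptor ASC that Pycard encodes, activate caspase-1, which processes the precursors of IL-1β and IL-18 and cleaves the pore protein gasdermin D. Casp4, also called Casp11 in the mouse, encodes the caspase that responds to bacterial lipopolysaccharide in the cytosol. Mice carry several Nlrp1 paralogs side by side, and allelic differences in Nlrp1b set whether macrophages of an inbred strain die after exposure to anthrax lethal toxin. These proteins are known mainly from macrophages and dendritic cells.

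The Nlrp1 paralogs lie next to each other on chromosome 11, with 0 annotated protein-coding genes between Nlrp1a and Nlrp1b in the reference gene order. Their upstream sequences are shown to let the paralogs be compared in the reference strain. The lines below hold the 250 bases before each start in RefSeq, GRCm38.p6, minus strand, 5′ to 3′, chr11:71144705-71144954 for Nlrp1a and chr11:71230734-71230983 for Nlrp1b. RefSeq gave 2 starts for Nlrp1b, and the one more like Nlrp1a is shown. Capitals mark bases that differ between the sequences or have no partner in their alignment.
Nlrp1a: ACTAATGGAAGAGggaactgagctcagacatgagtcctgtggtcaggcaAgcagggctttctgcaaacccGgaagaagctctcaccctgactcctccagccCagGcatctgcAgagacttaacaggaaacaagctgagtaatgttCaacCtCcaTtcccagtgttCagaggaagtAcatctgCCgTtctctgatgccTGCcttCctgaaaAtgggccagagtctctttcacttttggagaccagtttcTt
Nlrp1b: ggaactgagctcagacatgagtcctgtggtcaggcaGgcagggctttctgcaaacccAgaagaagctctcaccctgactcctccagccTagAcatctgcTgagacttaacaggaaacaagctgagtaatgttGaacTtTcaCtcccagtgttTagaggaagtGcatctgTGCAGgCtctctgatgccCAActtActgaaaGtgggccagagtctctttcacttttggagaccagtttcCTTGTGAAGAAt
Of 237 aligned positions, 217 held the same base (91.6 percent), and each sequence had 33 bases in capitals. Over the whole alignment of 263 positions the identity was 82.5 percent, against 41.0 to 49.8 percent in the 31 pairs of promoters of different genes that were not an Nlrp1a and Nlrp1b pair. The other Nlrp1b start had 47.6 percent identity with Nlrp1a, inside that range, so the likeness holds for the start chosen for it. These are the letters of the reference strain, and variants of the other strains are not in them. No probe sequences were at hand, so whether probes of 1 paralog also read another, or mismatch a strain's allele, was not tested.

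Values are linear intensities as normalized by the authors, and differences, SDs and standard errors (SE) are on the log2 scale. The array medians ran from 102 to 142, and the median correlation between arrays of a strain was 0.9953. The CD4 T cell marker list, 7 of 10 genes measured, had a mean of 11.84 to 12.30 (log2) on every array. Marker lists of other cells stood apart on replicate 2 of PL/J and replicate 2 of A/J, with B cell means (7 of 8 genes measured) of 8.69 and 7.35 against a median of 5.58 over all arrays. The PL/J array was also highest in the myeloid list (7.21, median 6.22, 12 of 12 genes measured) and the neutrophil list (7.39, median 5.35, 8 of 8 measured). In the erythroid list (3 of 6 measured) the PL/J array had 7.75 and the A/J array 7.59, against a median of 6.16. Replicate 5 of C57BL/6J was the highest array in the dendritic cell list (6.43) and the NK cell list (5.99). A difference in cell makeup and a difference in RNA per cell cannot be told apart in such bulk samples.

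The first comparison asked which of these genes differed between strains. In limma's moderated F-test over 40 groups, with Benjamini-Hochberg adjustment across the whole table, 5 of the 6 genes passed the threshold of 0.05, against 47.6 percent of all probe sets. Nlrp3 was the exception. The genes had been grouped as Nlrp1 paralogs that split the strains and partners that stay stable, and the partners Casp1, Casp4 and Pycard went against that label by passing the test.

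Nlrp1a divided the strains into a high and a low set with nothing between. Its mean intensity lay at 120 or more in 17 strains and at 37.1 or less in 23. Over the 34 arrays of the high strains it ran from 106 to 282 with a median of 193, and over the 48 arrays of the low strains from 22.4 to 46.4 with a median of 30.1. The array sets did not overlap. The gap between the lowest high strain, NZW/LacJ (106 and 136), and the highest low strain, RIIIS/J (41.6 and 33.2), was 1.69 on the log2 scale, or 3.23-fold, and the next largest gap between neighbouring strains was 0.32. Of the 39 gaps, 37 were smaller than the replicate SD of 0.23, so the order within either set is mostly within replicate error.

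The highest strain was SEA/GnJ, with 266 and 265, followed by BPL/1J with 201 and 282, NOR/LtJ with 260 and 209, P/J with 233 and 199, and MSM/Ms with 191 and 242. Below these came, in falling order of the mean, SJL/J, JF1/Ms, C57BLKS/J, AKR/J, PWD/PHJ, SM/J, NOD/ShiLtJ and the DBA2-titled group, with means between 201 and 173. KK.Cg-Ay/J (163 and 141), PL/J (195 and 116), CAST/EiJ (128 and 113) and NZW/LacJ closed the high set. The low set held C57BL/6J (27.4, 29.2, 24.5, 30.9 and 46.4), C57BL/10J, C57L/J, the C57BR-titled group, both CBA strains, C3H/HeJ, BALB/cByJ, 129S1/SvImJ, LP/J, FVB/NJ, MRL/MpJ, WSB/EiJ and others, down to A/J (28.2 and 24.5). Strain means spanned 10.1-fold (SD of strain means 1.33, adjusted p = 1.242e-30, limma F-test), and by SD Nlrp1a ranked 42 among all probe sets. The split of this gene was known when it was chosen, so its size, its p-value and the lack of overlap are descriptions. Of all values on all arrays, 13.3 percent lay below the median of the low arrays and 61.5 percent below the median of the high arrays. No detection calls were at hand, so a low value is not shown to be absence of the transcript.

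**Figure D1:**
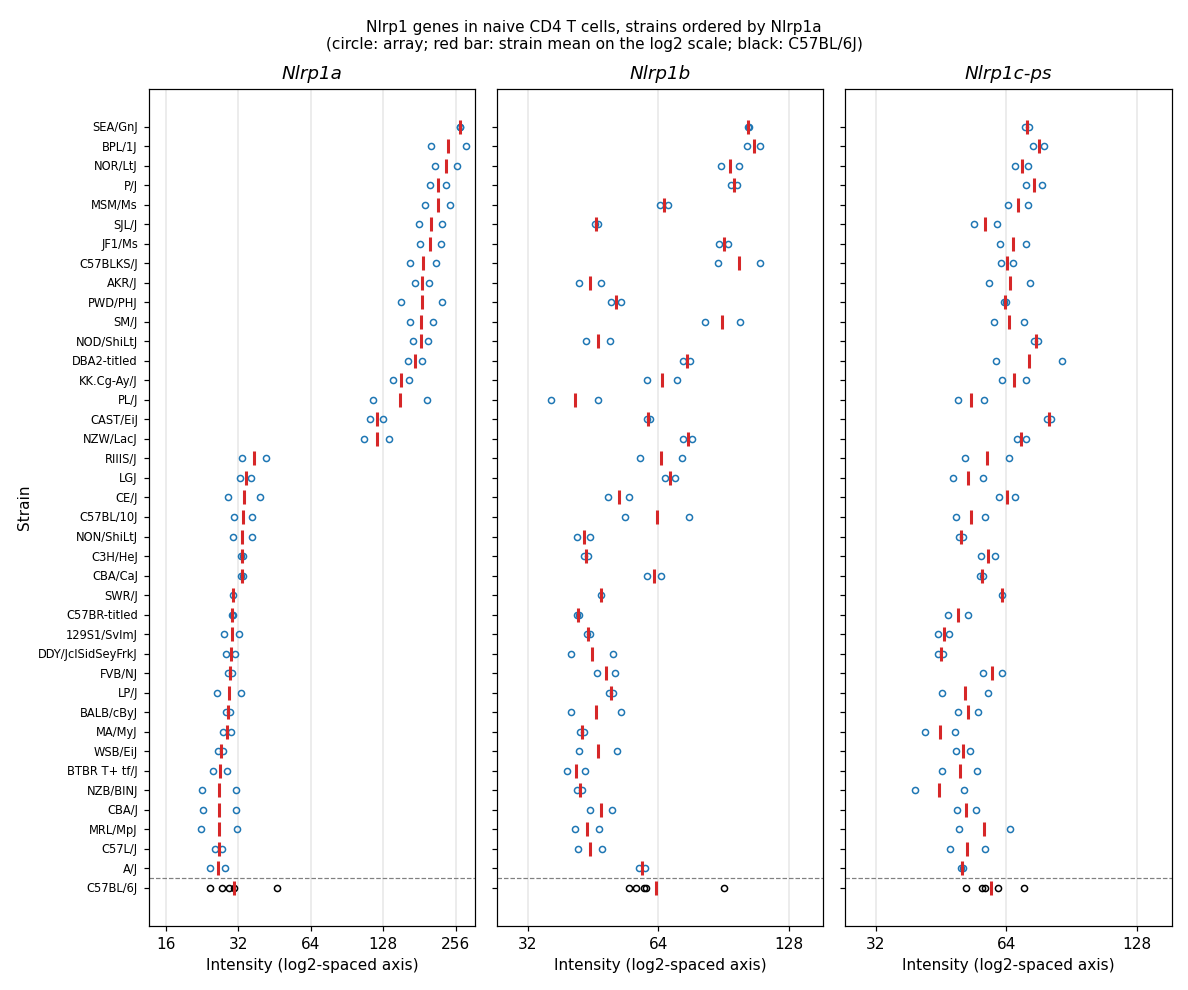
Intensity of Nlrp1a, Nlrp1b and Nlrp1c-ps (horizontal log axes) in each of the 40 strain groups, in the order of their Nlrp1a mean with C57BL/6J at the bottom; circles are arrays and red bars strain means. For Nlrp1a, 17 strains sit at 120 or more and 23 at 37.1 or less, whereas Nlrp1b runs from 41.1 to 106 without such a gap.

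Nlrp1b varied over a narrower range and formed no such sets. Its strain means ran from 41.1 in PL/J (36.3 and 46.5) to 106 in BPL/1J (103 and 110), a 2.59-fold span (SD 0.43, replicate SD 0.16, adjusted p = 1.205e-15, limma F-test). A group of 7 strains lay at 89.9 or more. These were BPL/1J, SEA/GnJ (103 and 104), C57BLKS/J (88.0 and 110), P/J (94.2 and 97.1), NOR/LtJ (89.1 and 98.4), JF1/Ms (92.9 and 88.6) and SM/J (98.9 and 81.8). The next strain, NZW/LacJ, had 73.1 and 76.5, and that gap of 0.27 was the largest between neighbouring strains. Nlrp1b was dim throughout. Of all values on all arrays, 20.1 percent lay below its lowest strain, 25.6 percent below its median strain and 48.3 percent below its highest. Whether background signal narrowed its range was not tested.

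All 7 strains with the highest Nlrp1b belonged to the 17 with high Nlrp1a, but high Nlrp1a did not always come with high Nlrp1b. PL/J, AKR/J, SJL/J, NOD/ShiLtJ and PWD/PHJ had Nlrp1a means of 151 to 201 and Nlrp1b means of 41.1 to 51.3. Nlrp1b spanned 36.3 to 110 with a median of 73.1 over the arrays of the strains with high Nlrp1a, and 39.4 to 90.7 with a median of 48.3 over those with low Nlrp1a, so the ranges overlapped. Over the 40 strain means the genes correlated at r = 0.64. Since the strains form separate sets, r was also taken within them, giving 0.43 over 17 strains and 0.55 over 23. The order of Nlrp1a within either set is mostly within replicate error. The deviations of the 81 replicated arrays from their strain means also correlated between the genes, at 0.27. How much of the r within the sets comes from such array-level variation was not tested. These correlations are descriptions, in which both genes are read from the same arrays and strains share ancestry.

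Nlrp1c-ps, the annotated pseudogene of the cluster, varied less. Its strain means ran from 44.8 in NZB/BINJ (51.0 and 39.3) to 80.4 in CAST/EiJ (79.5 and 81.2), with an SD of 0.23 and an adjusted p of 8.644e-07 (limma F-test). Its r with Nlrp1a was 0.79. The arrays of the 17 strains with high Nlrp1a spanned 49.4 to 85.8 and those of the 23 others 39.3 to 70.2. Whether the 3 probe sets read each other's transcripts was not tested.

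**Figure D2:**
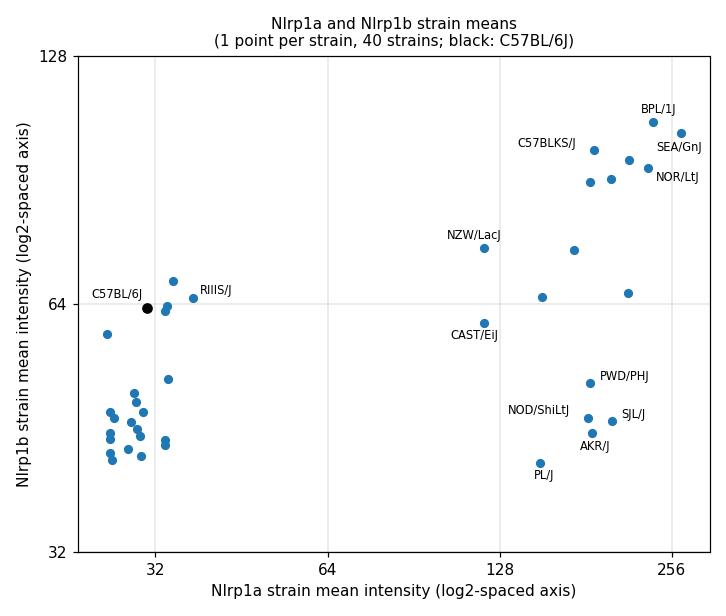
Strain mean intensity of Nlrp1b against that of Nlrp1a for 40 strain groups, both on log axes, with 1 point per strain and C57BL/6J in black. The 7 strains with Nlrp1b at 89.9 or more all lie on the right, at high Nlrp1a, while PL/J, AKR/J, SJL/J, NOD/ShiLtJ and PWD/PHJ combine high Nlrp1a with Nlrp1b of 41.1 to 51.3.

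The partner genes showed other strain patterns. Casp1, the caspase that processes IL-1β and IL-18 precursors, ran from a mean of 24.1 in 129S1/SvImJ (23.9 and 24.3) to 78.8 in CAST/EiJ (78.6 and 78.9), a 3.27-fold span (SD 0.42, replicate SD 0.19, adjusted p = 2.919e-12, limma F-test). LGJ (63.5 and 62.0), A/J (46.3 and 76.3), MRL/MpJ (48.3 and 67.6), C3H/HeJ (57.1 and 56.7) and CBA/CaJ (48.7 and 61.3) came next. In A/J the higher Casp1 value was that of replicate 2, the array with raised B cell and erythroid markers. Casp1 was a dim probe set in most strains, with 14.7 percent of all values below its median strain.

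Casp4 was set apart by CAST/EiJ. That strain had 281 on each of its 2 arrays, against 126 in the next strain, MRL/MpJ (134 and 120), a gap of 1.15 on the log2 scale. LGJ had 139 and 114 and PWD/PHJ had 129 and 81.9. At the low end stood 129S1/SvImJ (41.4 and 45.7), WSB/EiJ (43.8 and 52.7) and NZW/LacJ (51.7 and 52.4). The span was 6.47-fold (SD 0.47, replicate SD 0.19, adjusted p = 2.796e-14, limma F-test). In PL/J the value of 116 came from replicate 2, the array with raised B cell, myeloid, neutrophil and erythroid markers, and replicate 1 had 70.5. The myeloid list mean was higher in CAST/EiJ as well, at 6.66 and 6.62 against a median of 6.22. In CAST/EiJ 1 of its 12 genes, Lyz2, reached its highest strain mean of 1563, against a median strain of 50.3. Each gene weighs equally in the list mean, so 1 gene of such range can raise it. How far the other genes rose in CAST/EiJ was not examined. The list stood as high in JF1/Ms (6.65 and 6.64), MSM/Ms (6.62 and 6.65) and SM/J (6.55 and 6.63), whose Casp4 means were 66.2, 62.1 and 53.3. With the list mean as a covariate the Casp4 difference of CAST/EiJ minus C57BL/6J was 2.02 (adjusted p = 2.705e-14, limma), against 2.22 without it. The part of myeloid cells in these Casp4 values was not tested, as the list mean can follow single genes.

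Casp1 and Casp4 lie next to each other on chromosome 9, and their strain means ran in parallel. Over 40 strains r was 0.85, and it was 0.81 over the 38 without CAST/EiJ and LGJ. The deviations of the 81 replicated arrays from their strain means correlated at 0.24. The strains with the highest Casp1 (CAST/EiJ, LGJ, A/J, MRL/MpJ, C3H/HeJ and CBA/CaJ) were all called higher in Casp4 too against C57BL/6J, and 129S1/SvImJ was lowest in both. PWD/PHJ and SJL/J were also called higher in both. The calls did not all coincide. CBA/J, DDY/JclSidSeyFrkJ and NOR/LtJ were called higher in Casp1 only, and CE/J and PL/J in Casp4 only. Casp12, the next caspase gene in the reference order, stood at 10.8 to 15.7 and did not pass the F-test (adjusted p = 0.1925, limma).

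**Figure D3:**
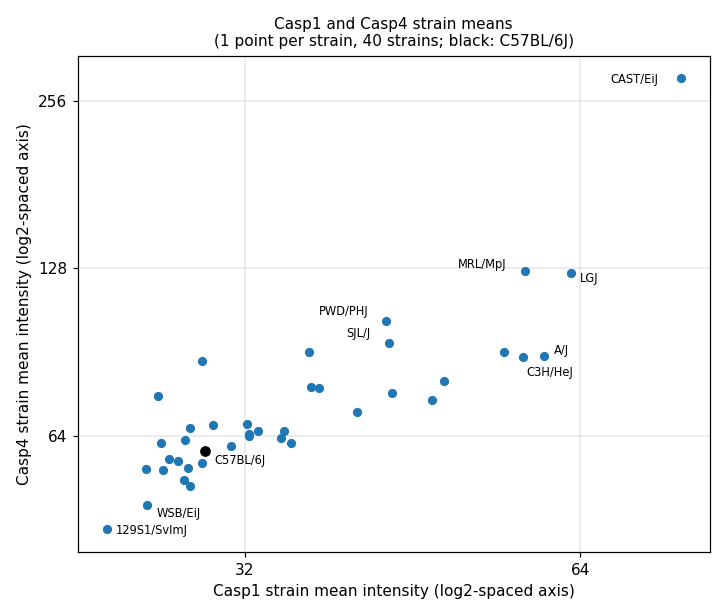
Strain mean intensity of Casp4 against that of Casp1 for 40 strain groups, both on log axes, with 1 point per strain and C57BL/6J in black. CAST/EiJ is highest in both (78.8 and 281) and 129S1/SvImJ lowest in both (24.1 and 43.5). The other strains scatter around the diagonal between them, and RIIIS/J (26.8 and 75.5) and CE/J (29.3 and 87.3) lie above it.

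Pycard, the adaptor gene, was bright in all strains, with strain means of 589 to 1264. NOD/ShiLtJ (1249 and 1280) and SWR/J (1227, 1 array) were highest, and NOR/LtJ followed with 1084 and 1067. The lowest were SEA/GnJ (595 and 582), PL/J (656 and 553), WSB/EiJ (687 and 540), NZB/BINJ (698 and 543) and C3H/HeJ (630 and 602). The span of 2.15-fold was small beside that of Nlrp1a, but the replicate SD was only 0.11 (SD of strain means 0.32, adjusted p = 5.989e-15, limma F-test).

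Nlrp3, the sensor of cell stress and ion efflux, was the gene without detectable strain differences. Its strain means ran from 33.7 in SWR/J, with 1 array, to 51.1 in BTBR T+ tf/J (45.1 and 58.0). The SD of strain means, 0.12, was below the replicate SD of 0.16, and the share of variance between strains was 0.019 (adjusted p = 0.5358, limma F-test). For comparison that share was 0.970 for Nlrp1a, 0.881 for Pycard, 0.874 for Nlrp1b, 0.848 for Casp4 and 0.810 for Casp1. The 5 arrays of C57BL/6J alone spanned 34.8 to 58.4 in Nlrp3. Its median strain had 20.5 percent of all values below it.

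The second comparison set 38 strains with 2 arrays each against C57BL/6J, the reference strain. Over all probe sets and strains, 2.31 percent of these contrasts were called higher and 5.21 percent lower. All contrasts share the 5 arrays of C57BL/6J and are not independent. Nlrp1a was higher in 17 strains and lower in 0, and the 17 were the strains above the gap. The differences ran from 1.96 in NZW/LacJ (adjusted p = 6.45e-12) to 3.11 ± 0.18 in SEA/GnJ (SE, adjusted p = 2.786e-19, limma contrasts). Of all probe sets, 0.642 percent were higher in as many strains. The Nlrp1 paralogs were chosen as genes that split the strains. These calls and the tests of Nlrp1b are therefore descriptions and no independent support.

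Nlrp1b differed from C57BL/6J in both directions. It was higher in 7 strains, the 7 named above, with 0.75 ± 0.13 in BPL/1J as the largest difference (SE, adjusted p = 5.229e-05, limma). It was lower in 16 strains, down to -0.62 in PL/J (adjusted p = 0.0002984, limma). In at least as many strains, 2.9 percent of all probe sets were called higher and 2.28 percent lower. Among the C57BL/6J arrays replicate 5 read 90.7 in Nlrp1b and the other 4 read 54.9 to 59.9. Without replicate 5, 9 strains were called lower. Leaving out 1 of a strain's own arrays ended 20 of the 23 calls, and those of BPL/1J, SEA/GnJ and PL/J held. With the myeloid list mean as a covariate the higher calls of JF1/Ms and SM/J were lost. Whether that mean tracks cell content or single genes was not tested.

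Casp1 was higher in 11 strains and lower in 0, and Casp4 higher in 10 and lower in 0. At least as many higher calls were found in 1.48 percent of all probe sets for the Casp1 count and 1.77 percent for the Casp4 count. The largest Casp1 differences were 1.42 ± 0.15 in CAST/EiJ (SE, adjusted p = 2.06e-10) and 1.09 in LGJ (adjusted p = 6.673e-07, limma). The largest Casp4 differences were 2.22 ± 0.15 in CAST/EiJ (SE, adjusted p = 3.632e-17), 1.07 in MRL/MpJ (adjusted p = 6.612e-07) and 1.06 in LGJ (adjusted p = 9.714e-07, limma). Without the arrays with raised B cell markers, the Casp4 difference was 0.55 in A/J (0.57 with both arrays, adjusted p = 0.07666 without) and 0.23 in PL/J (0.59 with both arrays, adjusted p = 0.5522 without), and the Casp1 difference of A/J was 0.65 (1.01 with both arrays, adjusted p = 0.0291 without, limma). Leaving out 1 of a strain's own arrays ended 7 of the 10 Casp4 calls and 5 of the 11 Casp1 calls, and CAST/EiJ, LGJ and MRL/MpJ kept both. Pycard was lower in 14 strains and higher in 0, from -0.29 in SM/J (adjusted p = 0.04645) to -0.81 ± 0.10 in SEA/GnJ (SE, adjusted p = 1.272e-08, limma). As many lower calls or more were found in 3.01 percent of all probe sets. Leaving out 1 of a strain's own arrays ended the Pycard calls of BPL/1J and SM/J. Both were also lost with each array centred on its median, and that of SM/J under quantile normalization and either marker covariate too. Nlrp3 was called in 0 of the 38 strains (limma), with 1 strain lower at an unadjusted p under 0.05, and in 2 strains, both higher, without replicate 5 of C57BL/6J.

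Of 6 pairs of related strains, 3 differed in at least 1 of the genes. NZB/BINJ and NZW/LacJ, both New Zealand strains, fell on opposite sides of the Nlrp1a split, with 22.6 and 31.4 in NZB/BINJ against 106 and 136 in NZW/LacJ. The difference was -2.17 ± 0.22 (SE, adjusted p = 1.792e-10, limma), in a contrast that called 1.95 percent of all probe sets. Nlrp1b was lower in NZB/BINJ too, at 41.6 and 42.8 against 73.1 and 76.5 in NZW/LacJ (-0.83 ± 0.16 SE, adjusted p = 0.0003806), and so was Nlrp1c-ps (-0.63, adjusted p = 0.007181, limma).

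NOD/ShiLtJ and NOR/LtJ, a strain of mostly NOD genome with segments from C57BLKS/J, parted at Nlrp1b but not at the Nlrp1a split. Nlrp1b had 43.5 and 49.6 in NOD/ShiLtJ against 89.1 and 98.4 in NOR/LtJ, a difference of -1.01 ± 0.16 (SE, adjusted p = 2.05e-05, limma) in a contrast that called 0.506 percent of all probe sets. The values of NOR/LtJ lay beside the 88.0 and 110 of C57BLKS/J. Nlrp1a had 196 and 170 in NOD/ShiLtJ, against 260 and 209 in NOR/LtJ, a difference of -0.35 that was not called (adjusted p = 0.9867, limma). Which alleles the strains carry at this locus was not examined.

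C3H/HeJ and CBA/J differed at Pycard, with 630 and 602 in C3H/HeJ against 1059 and 1009 in CBA/J (-0.75 ± 0.12 SE, adjusted p = 3.824e-05, limma), where 0.506 percent of all probe sets were called. The other pairs gave 0 calls among the 6 genes by limma. At an unadjusted p under 0.05, 129S1/SvImJ and LP/J differed in 2 genes (Casp1 and Casp4), CBA/CaJ and CBA/J in 1 (Nlrp1b), and MSM/Ms and JF1/Ms in 1 (Nlrp1b). These contrasts called 1.01, 0.361 and 2.13 percent of all probe sets. Over the 6 pairs and 6 genes, 4 differences were called.

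129 strains are known to carry a defective Casp4 allele, so 129S1/SvImJ was set against the mean of the other groups. Casp4 was lower in 129S1/SvImJ by -0.75 ± 0.13 (SE, adjusted p = 7.215e-05, limma), in a contrast that called 4.52 percent of all probe sets. Its arrays read 41.4 and 45.7, and the other strain means ran from 48.1 to 281. The step to the next strain, WSB/EiJ, was 0.15, below the replicate SD of 0.19. Against C57BL/6J alone the Casp4 difference was -0.47 and was not called (adjusted p = 0.06189, limma). Against the mean of the others Casp1 was also lower (-0.57, adjusted p = 0.003858), as were Nlrp1b (-0.38, adjusted p = 0.03123) and Nlrp1a (-1.14, adjusted p = 5.718e-07, limma). The Casp1 and Nlrp1b calls were lost without either array of the strain. The mean of the others includes the 17 strains with high Nlrp1a. Pycard (0.26, adjusted p = 0.05906) and Nlrp3 (0.03, adjusted p = 0.9217) were not called. LP/J, a relative of the 129 strains, read 70.6 and 60.2 in Casp4, and its difference from 129S1/SvImJ was not called (129S1/SvImJ minus LP/J -0.59, adjusted p = 0.1129, limma).

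A last comparison set the 4 strains of other subspecies than M. m. domesticus, which are MSM/Ms, JF1/Ms, CAST/EiJ and PWD/PHJ, against the remaining 36 by limma on strain means. None of the 6 genes was called, where 8.73 percent of all probe sets were, and 2 of them, Nlrp1a and Casp4, fell under 0.05 before adjustment. Nlrp1a was high in all 4 strains, at 120 to 215, against 26.3 to 266 in the other 36 with a median of 33.2. Its difference was 1.60 ± 0.63 (SE, adjusted p = 0.1184, limma). Casp4 differed by 0.59 ± 0.22 (SE, adjusted p = 0.09009, limma), with 62.1 to 281 in the 4 strains against 43.5 to 126 in the other 36. It passed the threshold when MSM/Ms (0.84) or JF1/Ms (0.81) was left out, and the difference was 0.12 without CAST/EiJ (adjusted p = 0.8493, limma). WSB/EiJ, a wild-derived domesticus strain, lay in the low Nlrp1a set with 26.3 and 27.8.

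Other genes of the pathway were read from 4 lists. Without the 6 genes, 27 of 39 measured genes passed the F-test, against 47.6 percent of all probe sets, and their median SD was 0.170, against 0.143 for the whole table. Among the sensors 6 of 9 passed. Naip2, of the family that detects bacterial needle and flagellin proteins, ran from 53.8 in CAST/EiJ to 520 in MSM/Ms (SD 0.70), Naip6 reached 107 in LP/J (SD 0.49), Naip5 reached 53.1 in LP/J (SD 0.31), and Aim2, the sensor of cytosolic DNA, ran from 211 in KK.Cg-Ay/J to 680 in PWD/PHJ (SD 0.46). Nlrp10 (SD 0.17) passed as well. The Naip genes are near-identical paralogs, for which cross-reading of probes was likewise not tested.

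Of the adaptor and caspase genes 4 of 5 passed. Card6, a CARD domain protein, had the widest range, from 33.4 in AKR/J to 1348 in NZW/LacJ (SD 0.81, adjusted p = 3.014e-30, limma F-test), followed by Nlrc3 (SD 0.17), Nek7, the kinase that binds NLRP3 (SD 0.17), and Casp8 (SD 0.11). Of the pore, cytokine and receptor genes 5 of 13 passed. They were Il18r1, a chain of the IL-18 receptor, with 177 in KK.Cg-Ay/J and 991 in MSM/Ms (SD 0.50), Il1rap (SD 0.21), Ninj1 (SD 0.19), Il18bp (SD 0.17) and Gsdmd, which encodes the pore protein (SD 0.12, adjusted p = 0.04928, limma F-test). The cytokine genes Il1a, Il1b, Il18 and Il33 did not pass, with median strains of 19.0, 51.3, 17.8 and 34.4.

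Of the inhibitor and trigger genes 12 of 12 passed. P2rx7, the ATP-gated channel that triggers NLRP3 in macrophages, ran from 212 in DDY/JclSidSeyFrkJ to 836 in 129S1/SvImJ (SD 0.60). Serpinb1a, an inhibitor of neutrophil proteases, ran from 24.6 in BPL/1J to 234 in JF1/Ms (SD 0.69, replicate SD 0.37), and Panx1, a channel protein, from 233 in MSM/Ms to 556 in 129S1/SvImJ (SD 0.30). Xiap, an inhibitor of apoptosis (SD 0.26), Tmem176b (SD 0.26) and Tmem176a (SD 0.20) completed the 6 with the largest SD. Dpp9 (SD 0.15) and Dpp8 (SD 0.16), which encode peptidases that hold NLRP1 inactive, moved within 270 to 435 and 785 to 1278. Nlrp12, Naip1 and Il1r1 were not analysed here.

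To show whether other genes beside the paralogs split the strains, the 10 annotated protein-coding genes on each side were read. All 20 were measured and 11 passed the F-test, a share near the 47.6 percent of all probe sets, with a median SD of 0.163 against 0.143 for the whole table. The adjacent gene 6330403K07Rik ran from 67.8 in MA/MyJ to 244 in JF1/Ms (SD 0.43) and had the highest r with Nlrp1a among them, 0.64. Xaf1, an interferon-inducible gene at the tenth place on the other side, ran from 246 in FVB/NJ to 1280 in PWD/PHJ (SD 0.56, r 0.53). Txndc17 (r 0.45), 4933427D14Rik (r 0.46), Med31 (r -0.52), Mis12 (r -0.41), Rpain, C1qbp, Nup88, Zfp3 and Wscd1 were the others that passed, with SDs of 0.12 to 0.24. None of the 20 had an SD near the 1.33 of Nlrp1a.

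**Figure D4:**
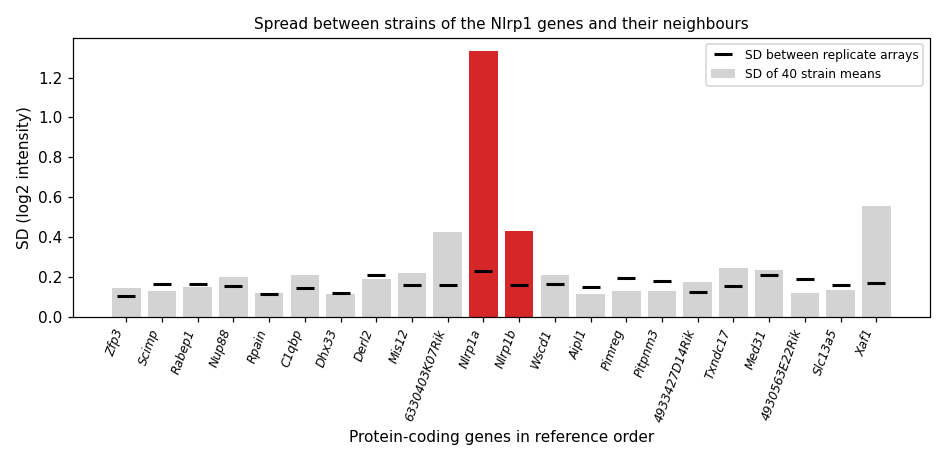
SD of strain means on the log2 scale for the Nlrp1 genes and the 10 annotated protein-coding genes on each side, in reference gene order, with 1 bar per gene (Nlrp1 genes in red, neighbours in grey) and black ticks at the replicate SD. Nlrp1a stands at 1.33, against at most 0.56 (Xaf1) among the 20 neighbours.

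Among genes that passed the F-test and whose brightest strain exceeded the overall median, those most like Nlrp1a over 40 strain means were Arfgef2 (r 0.67), Pld2 (0.66), 6330403K07Rik (0.64), Chd7 (0.59) and Ctc1 (0.57). The most opposed were 2810408A11Rik (-0.70), Eif4a1 (-0.64) and Kif1c (-0.63). For Nlrp1b they were 6330403K07Rik (0.66), Nlrp1a (0.64), Cyb5d2 (0.57), Akr1e1 (0.54) and Pld2 (0.54), with Kif1c (-0.73), Dlg4 (-0.70) and 2810408A11Rik (-0.64) at the other end. Of these genes Arfgef2 lies on chromosome 2, Chd7 on chromosome 4 and Akr1e1 on chromosome 13, and all others on chromosome 11, the chromosome of the Nlrp1 genes. These correlations were picked as the extremes of 9084 and 9085 candidates. Nlrp1c-ps and Nlrp1b were not candidates, as their brightest strain means of 80.4 and 106 lay below the overall median of 113. Their r with Nlrp1a was 0.79 and 0.64, and Nlrp1c-ps had an r of 0.66 with Nlrp1b. Nlrp1a passed that filter through its high strains.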

How the data were processed

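Naive CD4 T cells of 40 strain groups were measured on 82 Affymetrix ST1.0 arrays. The authors deposited normalized values as 1 linear intensity for every probe set on every array. The tools were Affymetrix Power Tools and RMA per the submitters' processing notes, and their versions are not given in the sources used here. Intensities were taken to log2 with no offset, filter or further normalization. A model with 1 coefficient per strain was fitted to all 24922 probe sets with limma 3.58.1 in R 4.3.3 (42 residual degrees of freedom, prior 8.09). Benjamini-Hochberg adjustment ran over the whole table with a threshold of 0.05. P-values of this fit set strain differences against the spread between replicate arrays, each from a pool of mice. The number of arrays limits the precision. Subspecies were compared by limma on strain means, where the spread is that between strains. Symbols came from the platform annotation (21425 probe sets with 1 symbol, 1399 with several, 2098 with none), and a gene with several probe sets was read from the one of highest mean. All 6 genes matched RefSeq (GRCm38.p6), and promoters were aligned with Biopython 1.88. The genes and lists were chosen with earlier results of these data known. Named were the 6 genes, at most 6 per list by SD among those past the F-test (Dpp8, Dpp9, Casp12 and the cytokine genes were added after their values were seen), neighbours past the F-test, and the 5 highest and 3 lowest correlations. The fit was tested on simulated data. Between strains, the differences of replicate 2 from replicate 1 had a median r of -0.0004, with 31.5 percent of 666 pairs of strains over 0.1. Single pairs ran from -0.63 to 0.57, and whether some strains shared a batch was not tested. Alternatives are given in the closing section.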

Additional observations from a re-analysis of the deposited data

Results flagged for a closer look

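Nlrp1b in C57BL/6J replicate 5 had an intensity of 90.7, far from the other 4 arrays of the strain, which read 54.9 to 59.9. The gap to the nearest array was 0.828 of the group's range on the log2 scale, above the critical value of 0.71 for 5 samples. Chance singles out about 1 in 20 groups by this measure for a single probe set. The 6 genes and Nlrp1c-ps were all read, so 1 flag among them is likelier. C57BL/6J was the only group with 4 or more arrays. The same array was also the highest of the 5 in Nlrp1a (46.4, others 24.5 to 30.9) and Nlrp3 (58.4, others 34.8 to 44.3). So it was in Casp4 (66.7, others 55.0 to 64.2) and Nlrp1c-ps (70.2, others 51.5 to 61.1), and it was the lowest in Casp1 (26.2) and Pycard (974). The gaps in these other genes lay below the critical value. This array was also the highest of the 5 in all 8 marker lists. On the log2 scale these stood at 6.43 for dendritic cells (others 5.66 to 5.89), 5.99 for NK cells (5.47 to 5.57), 6.73 for erythroid cells (5.95 to 6.09), 5.94 for B cells (5.45 to 5.54), 6.55 for myeloid cells (6.10 to 6.22), 5.65 for neutrophils (5.09 to 5.33), 8.10 for CD8 T cells (7.88 to 7.98) and 12.18 for CD4 T cells (12.12 to 12.16). Their part in the Nlrp1b value was not tested.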

How the results depend on the processing

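Over 34 results, 14 settings and 82 arrays left out in turn, 2559 of 2597 values kept their direction and side of the threshold, or for counts stayed within 1.5 times. Sizes moved more: with an offset of 32, 7 of 13 called values (contrasts with C57BL/6J apart) shrank by over 1.5 times, with no such change in another setting. They were NZB/BINJ minus NZW/LacJ in Nlrp1a (-1.37) and Nlrp1b (-0.53), 129S1/SvImJ minus the others in Nlrp1b (-0.25), Casp1 (-0.29) and Casp4 (-0.49), and the SD of strain means of Nlrp1b (0.29) and Casp1 (0.24). The F-test call of Nlrp1a, Nlrp1b, Casp1, Casp4 and Pycard and the absence of one for Nlrp3 held in the settings that kept the gene. A filter on the dimmest 40 percent by mean kept 1 of the 6 genes, Pycard, and by highest strain mean (added after seeing the data) kept 3, of which Nlrp1a and Casp4 passed through their high strains, so that their calls there are no support. All 17 Nlrp1a calls against C57BL/6J held in the other settings that kept the gene. Of 75 such calls for the 6 genes, 34 were lost without 1 of the strain's own arrays, 20 of them for Nlrp1b, and 23 of the 34 also under another setting. With the replicate block, Nlrp1b was lower than in C57BL/6J in 3 strains (16 without the block), and Pycard in 129S1/SvImJ passed (0.27, adjusted p = 0.04968). Whether the replicate numbers mark shared batches was not tested. Calls against C57BL/6J lost under the block were 13 of Nlrp1b, 3 of Casp1 and 1 of Pycard.

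For 129S1/SvImJ minus the mean of the others, quantile normalization gave -0.30 for Nlrp1b (adjusted p = 0.08023) and -0.50 for Casp1 (adjusted p = 0.0679). Pycard passed there with an offset of 32 (0.25, adjusted p = 0.03337), and without the dimmest probe sets by mean (0.26, adjusted p = 0.0336) or by highest strain mean (0.26, adjusted p = 0.03119). With single arrays left out these differences spanned -0.40 to -0.37 for Nlrp1b, -0.59 to -0.56 for Casp1 and 0.25 to 0.28 for Pycard. Against C57BL/6J, 1 strain was higher in Pycard under quantile normalization, the offset, both filters and the myeloid covariate. In Casp4, 1 strain was lower under the filter by highest strain mean, the myeloid covariate and without the second arrays of PL/J and A/J. Over arrays left out, 9 to 18 strains were lower in Nlrp1b, 0 to 2 higher in Nlrp3 and 0 to 1 lower in Casp4, the low Nlrp1b count and the 2 in Nlrp3 without C57BL/6J replicate 5. For the 4 strains of other subspecies against the 36, Casp4 passed without MSM/Ms (0.84, adjusted p = 0.02476) and without JF1/Ms (0.81, adjusted p = 0.03342). Casp1 turned to -0.12 without CAST/EiJ and Nlrp3 to 0.0013 without JF1/Ms, and neither was called in any setting. The causes of these changes were not tested.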
